A study of Mus musculus with 4 samples.

Results

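Immature granule-rich neutrophils were defined here as cells that carried many transcripts of Camp, Ngp and Ltf, which encode proteins of the secondary granules of neutrophils. A barcode was a member when it had at least 10 unique molecular identifiers (UMIs) of these 3 genes together, at least 5 of S100a8 and S100a9, none of the monocyte receptor gene Csf1r, at most 1 of the lymphocyte genes Cd3d, Cd3e, Cd79a and Ms4a1, and at most 1 of the endothelial genes Ptprb, Kdr and Egfl7. Barcodes first had to hold at least 200 genes and at most 20% mitochondrial UMIs. Of 24561 such barcodes in 4 libraries, 393 were members. The levels of these genes chose the cells, so they are given as a description. All libraries came from the liver of wild-type C57B6 mice of 18 to 20 weeks, with 1 mouse and 1 library per group. The control mouse received normal saline. The TAA mouse received intraperitoneal thioacetamide, a hepatotoxin that causes fibrosis, for 12 weeks. The mice labelled TAA+C7.5 or TAA+C30 received it too, together with celecoxib, an inhibitor of cyclooxygenase-2, by gavage at 7.5 or 30 mg/kg from the 5th week. Nonparenchymal cells were measured after a low-speed spin that depleted hepatocytes. Since each group was a single mouse, there were no replicates to check a difference against and none was tested. Every comparison below is between libraries, and its 95% interval covers counting error only.

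Neutrophils mature in the bone marrow through stages that fill successive sets of granules. Promyelocytes make the proteases and the peroxidase of primary granules, myelocytes and metamyelocytes make the antimicrobial proteins of secondary granules, and later stages make gelatinase granules and the receptors used to leave the marrow. The transcription factor C/EBP-epsilon, encoded by Cebpe, drives secondary granule genes. Immature stages are normally rare in blood and liver and appear there when output from the marrow is raised, and a small number of such cells also arises where blood is made outside the marrow.

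The 3 granule genes of the rule lie near one another on mouse chromosome 9 (build GRCm38, GENCODE M21). Camp, the gene of the cathelicidin precursor, lies at chr9:109847379-109849617 on the minus strand, Ngp, the gene of neutrophilic granule protein, at chr9:110419747-110423012 on the plus strand, and Ltf, the lactoferrin gene, at chr9:111019271-111042767 on the plus strand. From Camp to Ltf the region spans 1.20 Mb and holds 28 other protein-coding genes. Of these, 1, Ccdc12, reached 50 CPM in TAA+C30 members (CPM are UMIs of a gene scaled to a common class total). It stood at 123, 170 and 114 CPM in the TAA, TAA+C7.5 and TAA+C30 members and at 145, 174 and 181 in mature neutrophils. Of the 28, 17 had fewer than 10 UMIs over members and mature neutrophils together and were not compared. Cdc25a, a cell cycle phosphatase gene next to Camp and named after its values were seen, was at 12.6, 45.7 and 9.28 CPM in members and at 2.52, 0 and 1.98 in mature neutrophils. The stretches just before the transcription starts of the 3 genes are shown because the cells were chosen by this expression (RefSeq, GRCm38.p6, each read 5′ to 3′ on the strand of its gene and ending at the GENCODE start, where the first annotated exon begins). Capitals mark matches to TTNNGCAA on either strand, letters that resemble a C/EBP site.
Camp, chr9:109849618-109849706, minus strand: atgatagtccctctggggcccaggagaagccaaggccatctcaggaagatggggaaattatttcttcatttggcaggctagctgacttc
Ngp, chr9:110419558-110419746, plus strand: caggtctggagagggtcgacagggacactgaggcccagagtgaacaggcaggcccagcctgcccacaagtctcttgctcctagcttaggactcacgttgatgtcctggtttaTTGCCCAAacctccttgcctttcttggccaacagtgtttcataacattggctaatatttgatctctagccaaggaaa
Ltf, chr9:111019042-111019270, plus strand: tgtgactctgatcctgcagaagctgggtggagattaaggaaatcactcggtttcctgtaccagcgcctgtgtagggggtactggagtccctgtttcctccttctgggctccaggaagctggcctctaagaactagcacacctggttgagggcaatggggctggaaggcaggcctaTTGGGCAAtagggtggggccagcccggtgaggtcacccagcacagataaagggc
The search covered the 250 bases before each RefSeq start, at position 109849456 for Camp, 110419808 for Ngp and 111019292 for Ltf, which lie inside the GENCODE genes. Camp had 0 matches, Ngp had 2, beginning 138 and 11 bases before its RefSeq start, and Ltf had 1, beginning 75 bases before. In the stretches shown, the Ngp match begins 77 and the Ltf match 54 bases before the end, and the second match of Ngp lies past the stretch. Among 32851 mouse promoter windows of this length, 9.56% held at least 1 match. Lcn2, Mmp8 and Retnlg held 1 match each and Chil3 and Cd177 held 0. A match describes letters in this window and is no measured binding site.

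Values below run from control through TAA and the lower dose to the higher dose. In that order 5788, 6512, 6083 and 6178 barcodes were kept, with medians of 3396.5, 4632.5, 1994 and 3138 UMIs. The members held 10134, 316844, 153083 and 1723641 UMIs in all. Median UMIs per member were 10134, 7295.5, 3283 and 5085, and median mitochondrial shares were 1.17%, 0.701%, 0.490% and 0.596%. Any pair of libraries shared 9 to 14 barcodes among all those deposited, before filtering, and no barcode was a member in both libraries of a pair. A doublet caller marked 121, 63, 153 and 123 kept barcodes, of which 0, 0, 1 and 1 were members.

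The label was checked against markers. All 8 markers of the immature class were detected in every library, among them, outside the rule, Lcn2, the gene of the iron-scavenging lipocalin, Chil3, a chitinase-like protein gene, and Cd177, a neutrophil surface protein gene. Mature neutrophils of the thioacetamide libraries held all 8 too, so detection alone does not separate the classes. The markers, rule genes included, summed to 80933, 100560 and 81195 CPM in TAA, TAA+C7.5 and TAA+C30 members. In mature neutrophils they summed to 1166, 1573 and 2221. Of 10 general neutrophil markers, among them the rule genes S100a8 and S100a9, 10 were detected in each thioacetamide library, while the single control member lacked Cxcr2 and Mmp8. Myeloid progenitor markers, among them the primary granule genes, summed to 59.97, 2005 and 1459 CPM in TAA, TAA+C7.5 and TAA+C30 members, with Cd34 at 0 in all 3, and to 44.8, 5.80 and 929 in mature neutrophils. In the thioacetamide libraries, the endothelial, B cell, dendritic cell, platelet, stellate, Kupffer and basophil, mast cell or eosinophil lists each summed to at most 26.1 CPM. The rule itself capped Ptprb, Kdr and Egfl7 of the endothelial list and Cd79a and Ms4a1 of the B cell list. It also capped Cd3d and Cd3e of the T or NK list. Low sums of these lists were thus fixed in part by the rule and are no check of the label. T or NK markers summed to 63.1, 209 and 89.9 CPM in the TAA, TAA+C7.5 and TAA+C30 members, and hepatocyte markers to 120, 105 and 99.8. Monocyte or macrophage markers summed to 843, 836 and 792 in members and to 316, 230 and 517 in mature neutrophils. Csf1r was at 0 by the rule, and Adgre1, the gene of the macrophage marker F4/80, was at 0 in the TAA and TAA+C7.5 members. Of the 11 genes of this list, TAA+C7.5 members held only 2, the monocyte genes Ly6c2 and Ccr2. Cholangiocyte markers summed to 183, 137 and 167. The share of these signals that came from free RNA was not tested.

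Granule-rich neutrophils were a small class in 3 libraries and a large one in the TAA+C30 library. Members numbered 1, 36, 35 and 321. Their share of kept barcodes was 0.0173% (exact Clopper-Pearson interval 0.000437% to 0.0962%) in the control, 0.553% (0.387% to 0.765%) with TAA, 0.575% (0.401% to 0.799%) with TAA+C7.5 and 5.20% (4.66% to 5.78%) with TAA+C30. The TAA and TAA+C7.5 intervals overlapped, and the TAA+C30 interval lay above both. The TAA+C30 share was 9.40 times that of TAA (6.65 to 13.7) and 9.03 times that of TAA+C7.5 (6.36 to 13.2), while TAA+C7.5 over TAA was 1.04 (0.635 to 1.71). The TAA share was 32.0 times that of the control (5.39 to 1298.5), a ratio that rests on 1 control cell.

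**Figure D1:**
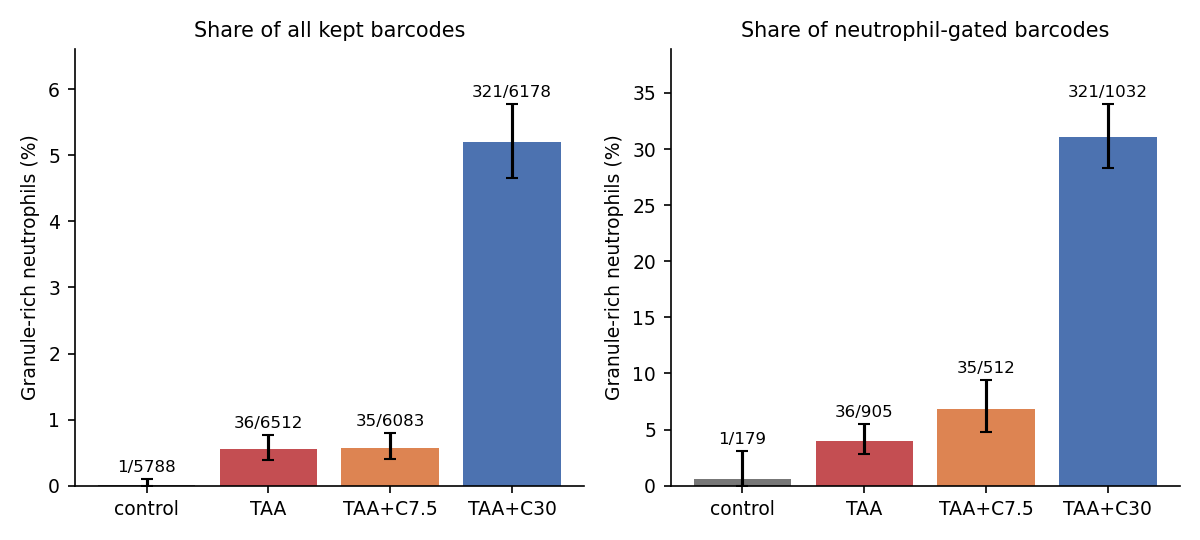
Share of barcodes that met the rule, in percent, per library, of all kept barcodes (left) and of neutrophil-gated barcodes (right). Bars are the shares, error bars exact 95% intervals for counting error, and the numbers give members over barcodes; the TAA+C30 bar stands at 5.20% on the left and 31.1% on the right.

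The pattern among neutrophils alone was similar for the higher dose and differed in size for the lower one. Neutrophil-gated barcodes, those that passed every condition except that on granule UMIs, numbered 179, 905, 512 and 1032. Members made up 0.559% (0.0141% to 3.07%), 3.98% (2.80% to 5.46%), 6.84% (4.81% to 9.38%) and 31.1% (28.3% to 34.0%) of them. The TAA+C30 share was 7.82 times that of TAA (5.53 to 11.4) and 4.55 times that of TAA+C7.5 (3.20 to 6.65). TAA+C7.5 over TAA was 1.72 (1.05 to 2.82), beside a neutrophil-gated share of kept barcodes of 8.42% with TAA+C7.5 and 13.9% with TAA. With barcodes thinned to 1000 UMIs, which 5043, 6278, 5402 and 5704 of those kept could give, and the thresholds lowered to 5 granule and 2 S100a8 and S100a9 UMIs, the 2 shares were 3.54% with TAA and 8.31% with TAA+C7.5, a ratio of 2.35, and the TAA+C30 share was 28.0%. Neutrophil-gated barcodes as a whole were 16.7% of kept barcodes with TAA+C30, 1.20 times the TAA share (1.10 to 1.32). Mature neutrophils, with 0 to 2 granule UMIs and at least 1 UMI of the G-CSF receptor gene Csf3r, were 2.99%, 12.4%, 6.81% and 9.03% of kept barcodes. Thus by these gates the TAA+C30 library held a lower share of mature neutrophils than the TAA library and a higher share of granule-rich ones. The mature gate used fixed numbers of UMIs, and mature cells had medians of 2321 UMIs with TAA and 1579.5 with TAA+C30. Neutrophil-gated barcodes with granule UMIs between the limits of the 2 classes numbered 11 and 47. The part of depth and of free granule RNA in the mature shares was not tested.

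Barcodes with primary granule transcripts and few secondary granule ones were also more frequent in the TAA+C30 library. Barcodes with at least 5 UMIs of the primary granule genes Mpo, Elane, Prtn3 and Ctsg and fewer than 10 granule UMIs, called progenitors here, numbered 0, 28, 8 and 111. This gate set no condition on Csf1r, S100a8 or S100a9, so it did not leave out monocyte-lineage barcodes. In TAA, TAA+C7.5 and TAA+C30 progenitors S100a8 stood at 1982, 795 and 3935 CPM, against 188500, 133535 and 178234 in members. Cebpe stood at 4.04, 91.3 and 21.6 CPM, against 161, 268 and 147. Whether these barcodes were the stage before the members was not tested. Progenitor shares of kept barcodes were 0%, 0.430%, 0.132% and 1.80%, where 0 of 5788 control barcodes allows up to 0.0518% by the limit of 3 counts (exact upper bound 0.0637%). TAA+C30 over TAA was 4.18 (2.74 to 6.57) and TAA+C7.5 over TAA was 0.306 (0.120 to 0.689). The gate was a fixed number of UMIs, while kept barcodes had medians of 4632.5, 1994 and 3138 UMIs with TAA, TAA+C7.5 and TAA+C30. Thinned to 1000 UMIs, 2 of 28 TAA, 2 of 8 TAA+C7.5 and 19 of 111 TAA+C30 progenitors still held at least 5 primary granule UMIs. The part of depth in the 2 ratios was not tested.

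Granule UMIs were also found outside these cells, mainly in the TAA+C30 library. Of barcodes with at least 3 UMIs of the B cell genes Cd79a and Ms4a1, which should lack granule transcripts, 0.216%, 2.14%, 1.30% and 12.7% held a granule UMI. Their granule level, leaving out 5 TAA+C30 barcodes with at least 10 granule UMIs, was 0.535, 5.26, 4.65 and 39.1 CPM. With those 5 barcodes the TAA+C30 level was 961 CPM. The member with the lowest granule level in the TAA+C30 library had 1358.1 CPM, and the lowest in TAA and TAA+C7.5 had 3168.9 and 3614.9. The rule set a floor for members, so this gap is a description.

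Members spanned a wide range of granule content in every thioacetamide library. Camp, Ngp and Ltf gave 0.317% to 12.0% of a member's UMIs with TAA (median 4.50%, quartiles 1.25% and 8.53%), 0.361% to 15.3% with TAA+C7.5 (5.94%, 2.54% and 9.56%) and 0.136% to 18.8% with TAA+C30 (4.95%, 1.92% and 8.48%). The ranges overlapped nearly whole, and the control cell stood at 9.96%. Just inside the threshold, at 10 to 14 granule UMIs, lay 0, 0, 4 and 14 barcodes, and just outside it, at 5 to 9, lay 0, 6, 6 and 22. With TAA+C30 the barcodes just inside had 7035 Lcn2, 49858 Retnlg and 4435 Il1b CPM, and those just outside 6578, 42990 and 4860.

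**Figure D2:**
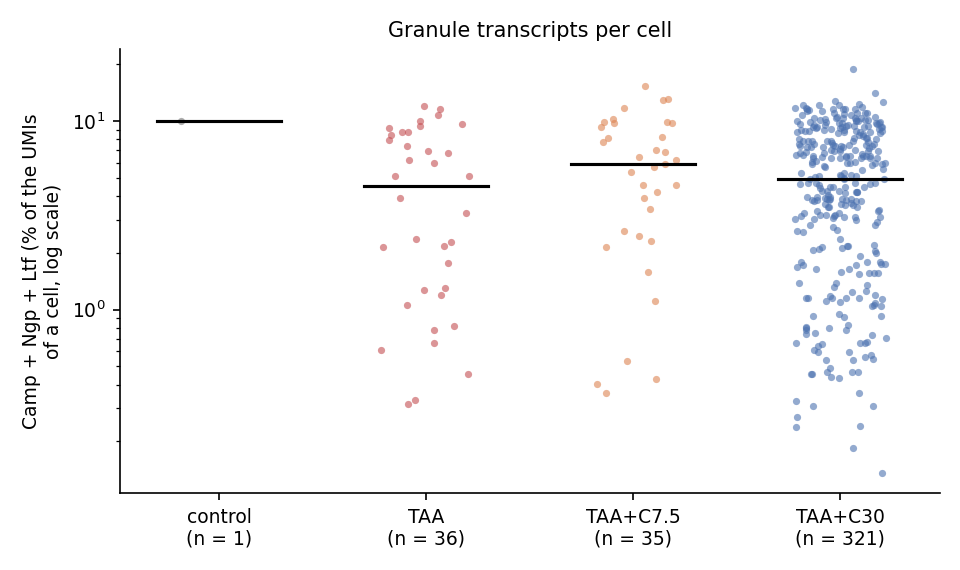
Camp, Ngp and Ltf UMIs as a percent of all UMIs of a cell (log scale), with 1 point per member in each library and the median as a line. The medians of the TAA, TAA+C7.5 and TAA+C30 members lie between 4.50% and 5.94%, and each of these libraries spreads over more than a 10-fold range. The control has 1 member.

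Within the members, granule content went with genes of earlier and later stages. Divided at 1%, 3% and 10% of UMIs, the TAA members numbered 7, 9, 17 and 3, those of TAA+C7.5 4, 6, 20 and 5, and those of TAA+C30 45, 54, 182 and 40. From the lowest to the highest division Lcn2 went from 8711 to 21032 CPM with TAA, from 8411 to 20008 with TAA+C7.5 and from 7691 to 20048 with TAA+C30. Chil3 went from 0 to 8798 with TAA, from 0 to 8237 with TAA+C7.5 and from 56.2 to 9055 with TAA+C30. Cebpe went from 22.2 to 352 with TAA and from 61.3 to 299 with TAA+C30, and was at 0, 0, 356 and 292 along the divisions with TAA+C7.5. Cd177 showed no steady gradient with TAA, at 731, 1104, 880 and 911, or with TAA+C7.5, at 277, 863, 1079 and 561. With TAA+C30 it went from 664 to 1171. Genes of later stages ran opposite to Lcn2 and Chil3. Retnlg, which encodes a resistin-like protein of late neutrophils, went from 52024 to 621 CPM with TAA, from 48341 to 780 with TAA+C7.5 and from 43144 to 2172 with TAA+C30. Mmp8, the gene of neutrophil collagenase, stood at 2771, 3614, 2566 and 0 along the divisions with TAA and at 2228, 2837, 2172 and 405 with TAA+C30, so its peak lay at 1% to 3%. Il1b, the interleukin-1 beta gene, went from 3214 to 82.8 with TAA and from 3695 to 193 with TAA+C30, while in TAA+C7.5 it was at 1202, 2132, 2331 and 24.4. Since a larger granule share lowers the share of every other gene, and the divisions with few cells rest on 3 to 9 members, these gradients are descriptions. A low share also came with early-stage transcripts in some TAA+C30 members. The member with the lowest share, 0.136%, held 925 UMIs of Mpo, Elane, Prtn3 and Ctsg. Members at 1.75%, 1.80% and 3.17% held 294, 203 and 931. In TAA+C7.5, members at 11.8% and 9.94% held 118 and 161, and in TAA a member at 8.74% held 6.

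**Figure D3:**
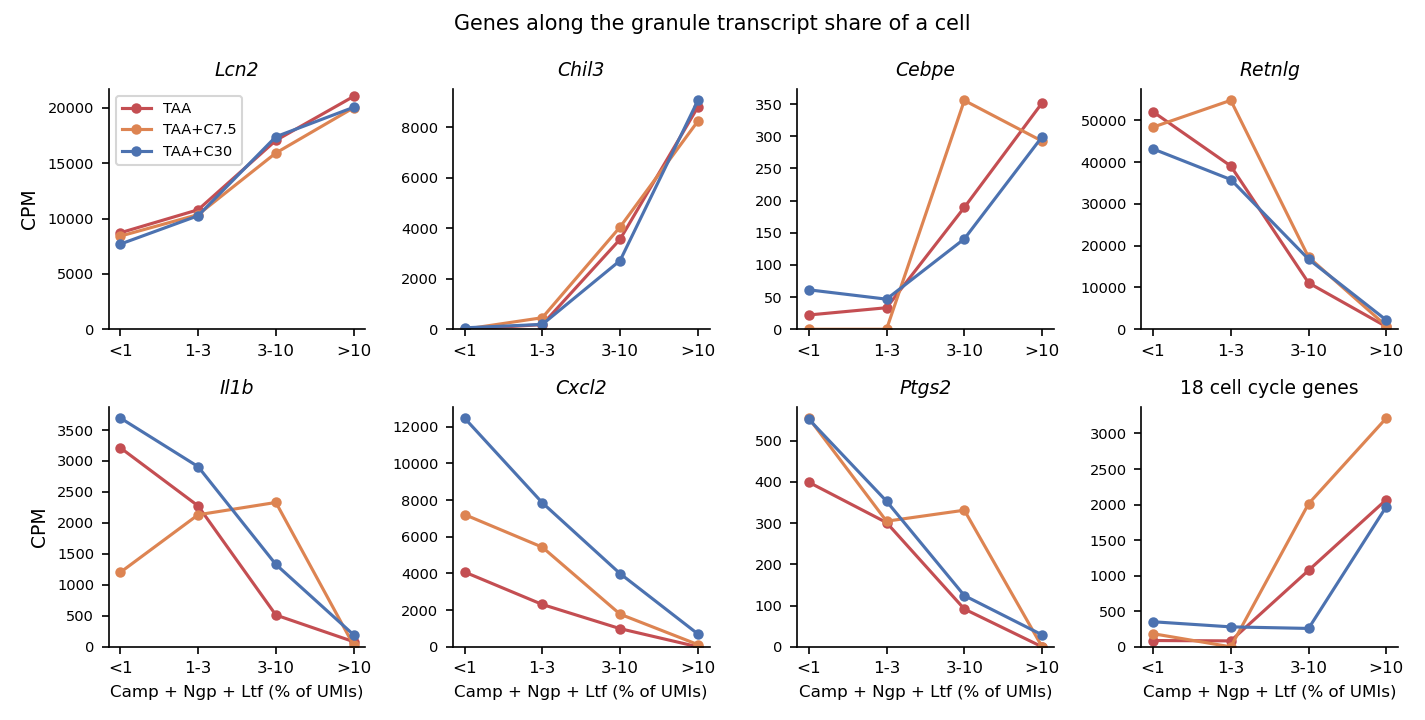
CPM (linear scale, each panel from 0) of 7 genes and of 18 cell cycle genes summed, in members divided by their Camp, Ngp and Ltf share, for the TAA, TAA+C7.5 and TAA+C30 libraries. Lcn2 and Chil3 go up with granule share in all 3 libraries, Retnlg and Cxcl2 are far lower above 10% than below 1%, and the cell cycle genes are at their highest above 10%.

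Set beside mature neutrophils of the same library, members had a larger share of granule stage transcripts and a smaller share of cytokine and receptor transcripts. Because the same cells' granule genes made the split, these values describe the 2 classes. Levels are in CPM of the class total, and a log2 ratio has 10 CPM added to both sides. Where the higher class reached 50 CPM and 30 UMIs, 135 of 2204 genes were at least 2-fold higher in members with TAA (6.13%), 130 of 1860 with TAA+C7.5 (6.99%) and 152 of 2359 with TAA+C30 (6.44%). Those at least 2-fold lower numbered 895 (40.6%), 901 (48.4%) and 726 (30.8%). Of 1664 genes measured in all 3 libraries, 59 were higher and 526 lower in each. With trimmed mean scaling the TAA+C30 split was 282 higher and 385 lower, so the size of the excess of lower genes there depends on the scaling.

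Secondary granule genes led the higher side, as the rule makes likely. Of 16 listed genes, 14 were at least 2-fold higher in each library, beside 4.6%, 9.83% and 3.34% of all genes with at least 10 UMIs, with median log2 ratios from 3.45 to 4.08, against −0.37, −0.44 and −0.29 over all genes. Camp stood at 26265, 45949 and 25356 CPM in members and at 2.52, 7.73 and 22.8 in mature cells. Ngp stood at 28131, 27207 and 27390, and Ltf at 6659, 5820 and 7901. Lcn2, which the rule did not use, was at 15291, 15769 and 15794 against 1101, 1439 and 1739, or 9.08 to 13.9 times higher. The member level of Lcn2 was thus much alike in the 3 libraries.

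Other genes with the largest differences in all 3 libraries were Serpinb1a, the gene of an inhibitor of neutrophil elastase, at 407, 673 and 494 CPM against 12.6, 9.66 and 18.8, and Cd177, with log2 ratios of 4.68, 4.40 and 4.11. Itgb2l, an integrin subunit gene of maturing granulocytes, had ratios of 4.77, 4.32 and 4.06. Adpgk, the gene of an ADP-dependent glucokinase, was at 603, 653 and 596 against 9.06, 29.0 and 27.7. Cybb, which encodes the catalytic subunit of the phagocyte NADPH oxidase, had ratios of 4.27, 3.84 and 3.49, while the median over 8 measured oxidase genes was 0.16, 0.41 and 0.21. Cebpe was at 161, 268 and 147 against 8.1, 5.8 and 7.9 CPM.

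Gelatinase granule genes differed less. Their medians were 0.59, 0.01 and 0.64 over 15 measured genes. Mmp8 was at 2402, 1953 and 1951 CPM in members and at 200, 446 and 482 in mature cells, a ratio of 12.0, 4.38 and 4.04. Mmp9, the gelatinase B gene, differed by 1.46, 1.01 and 1.57 times. Retnlg was at 20597, 19859 and 19718 in members, 3.54, 1.90 and 1.81 times the mature level.

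As a share of UMIs, receptors and cytokines were lower in members. Of 16 listed mature neutrophil genes, 13, 15 and 14 were at least 2-fold lower (medians −1.91, −1.99 and −1.61), beside 19.9%, 30.7% and 14.7% of all genes with at least 10 UMIs. Csf3r, which the mature gate itself required, was at 158, 144 and 157 CPM against 1850, 2403 and 1657. Cxcr2, the receptor for neutrophil-attracting chemokines, was at 218, 144 and 167 against 603, 539 and 409, or 2.77, 3.75 and 2.46 times lower. Members were deeper, with medians of 7295.5, 3283 and 5085 UMIs against 2321, 1184.5 and 1579.5. A UMI of Cxcr2 was found in 26 of 36, 11 of 35 and 167 of 321 members. For mature cells this was 528 of 807, 195 of 414 and 255 of 558. Detection of Cxcr2 per cell was thus lower in members only with TAA+C7.5. Il1b was at 1165, 1607 and 1609 against 8346, 9289 and 7645, or 7.17 (6.46 to 7.97), 5.78 (5.08 to 6.60) and 4.75 (4.55 to 4.96) times lower. Of 20 listed inflammatory cytokine and NF-kB genes, 19, 19 and 17 were at least 2-fold lower, beside the same shares of all genes, with medians of −2.99, −3.43 and −2.29. The largest differences that held in all 3 libraries were those of Clec7a, the gene of the beta-glucan receptor dectin-1, with log2 ratios of −5.96, −6.59 and −5.06, and Wfdc17, with −5.65, −7.43 and −4.93. Csf1, a growth factor gene, had −5.88, −5.55 and −4.02, and Atf3, a stress-induced transcription factor gene, −5.13, −5.91 and −4.33. Interferon response genes had medians of −1.73, −1.79 and −1.19, and dissociation and immediate early genes −1.82, −2.08 and −1.25.

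**Figure D4:**
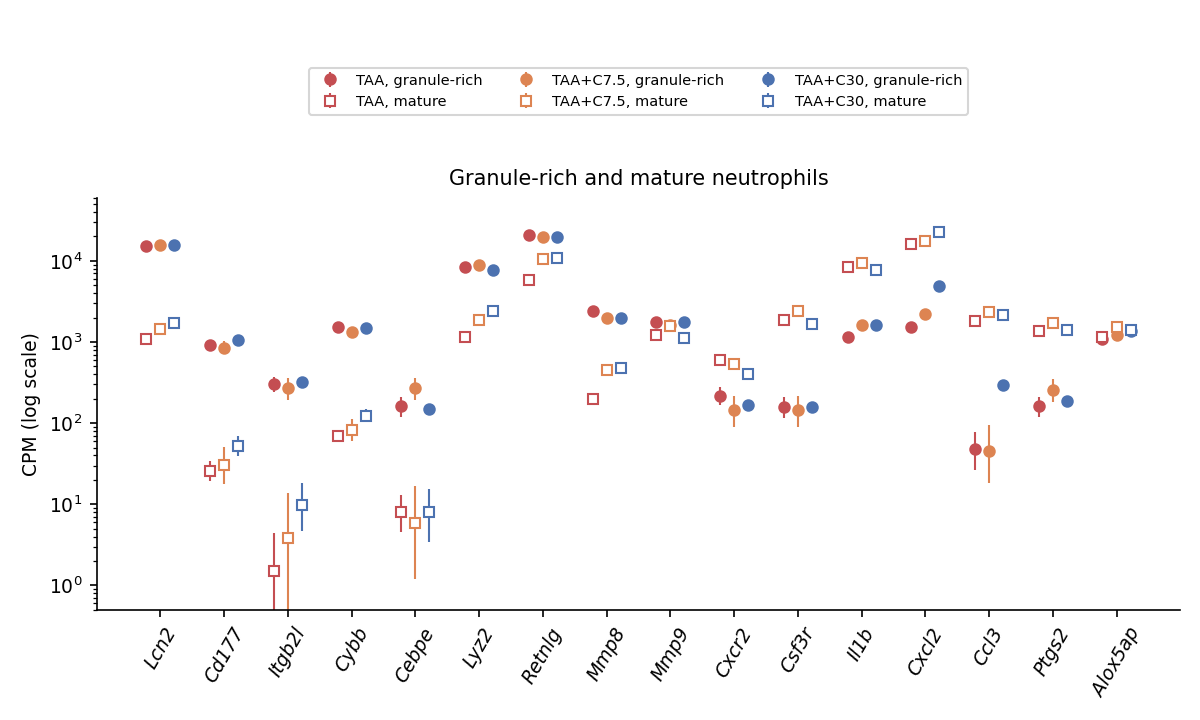
CPM (log scale) of 16 genes in granule-rich members (filled circles) and mature neutrophils (open squares) of the TAA, TAA+C7.5 and TAA+C30 libraries, with exact Poisson 95% intervals for counting error. Lcn2, Cd177, Itgb2l, Cybb and Cebpe lie higher in members, Il1b, Cxcl2, Ccl3, Csf3r and Ptgs2 lower, and Alox5ap is close in both.

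Many members also carried late-stage transcripts. After thinning to 1000 UMIs, 44.4%, 63.6% and 60.4% of TAA, TAA+C7.5 and TAA+C30 members had at least 1 UMI of Cxcr2 or Il1b, against 98.1%, 97.6% and 95.8% of mature neutrophils. Barcodes too shallow to thin numbered 0, 2 and 8 members and 28, 119 and 79 mature neutrophils. Without thinning the shares were 83.3%, 77.1% and 81.0% of members and 99.1%, 97.6% and 97.7% of mature neutrophils. Il1b in B cell barcodes stood at 215, 98.0 and 211 CPM, below the member levels of 1165, 1607 and 1609. The part of free RNA in the shares was not tested.

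The members of the TAA+C30 and TAA libraries had close transcript levels apart from a few genes. Of 1416 genes that reached 50 CPM and 30 UMIs where they were higher, 31 were at least 2-fold higher with TAA+C30 (2.19%) and 11 lower (0.777%). With trimmed mean scaling the split was 52 and 5, and without the 10 most abundant genes in the total it was 79 and 13. Among 6637 genes with 10 or more UMIs summed over the pair of libraries, 10.8% were at least 1.5-fold higher and 8.74% lower, with a median log2 ratio of 0.01. TAA+C30 and TAA+C7.5 are both set against the same TAA library, so the values of these comparisons are not independent.

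Secondary granule genes were even between TAA+C30 and TAA. Of 16 genes 0 were at least 1.5-fold higher and 1 was lower (median 0.07). The lower one was Abca13, a lipid transporter gene, at 44.1 against 91.5 CPM. Camp differed by −0.05, Ngp by −0.04, Ltf by 0.25 and Lcn2 by 0.05 on the log2 scale. NADPH oxidase genes had a median of 0.08 and gelatinase granule genes one of 0.03. Among listed mature neutrophil genes 3 of 16 were higher and 1 lower (0.12), and among interferon response genes 4 of 18 were higher and 2 lower (0.32). Medians were 0.10 for chemotaxis and adhesion receptors, 0.01 for hypoxia and glycolysis, 0.10 for oxidative stress and 0.18 for glucocorticoid targets.

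Cytokine and chemokine genes were higher in TAA+C30 members. Of 20 listed inflammatory genes, 9 were at least 1.5-fold higher and 0 lower (median 0.50), beside 10.8% and 8.74% of all genes. Cxcl2, a neutrophil-attracting chemokine gene chosen for mention after its values were seen, was at 1528, 2188 and 4886 CPM with TAA, TAA+C7.5 and TAA+C30. TAA+C30 stood at 3.20 times the TAA level (2.92 to 3.51), and 290 of 321 members held a UMI against 30 of 36. The order TAA, TAA+C7.5, TAA+C30 held in each of the 4 divisions by granule share, with 4079, 7210 and 12468 CPM below 1% and 990, 1779 and 3989 from 3% to 10%. In mature neutrophils Cxcl2 was at 16296, 17579 and 22809, and in B cell barcodes at 174, 146 and 269.

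Ccl3, which encodes a chemokine for monocytes and lymphocytes, was at 47.3 CPM with TAA, 45.7 with TAA+C7.5 and 298 with TAA+C30, 6.30 times the TAA level (3.78 to 11.3). A UMI of it was found in 5 of 36 TAA and 101 of 321 TAA+C30 members. Ccl4, a related chemokine gene, was at 9.47, 26.1 and 198, a ratio to TAA of 20.9 (7.09 to 102). B cell barcodes had it at 132, 219 and 119. The TAA value rests on 3 UMIs, and 1 TAA+C30 barcode held 51.0% of the UMIs there; without the top barcode of each library the log2 ratio was 3.02 in place of 3.42 and the TAA+C30 level 97.7 CPM, below that of B cell barcodes. In B cell barcodes Ccl3 was at 53.6, 85.1 and 26.8. The TAA and TAA+C7.5 members were not above these levels and the TAA+C30 members were. Egr1, an immediate early gene, was at 22.1, 32.7 and 124, with TAA+C30 5.59 times higher than TAA (2.67 to 14.1), and was seen in 3 of 36 TAA and 98 of 321 TAA+C30 members. B cell barcodes had more of it, at 176, 89.8 and 141, and the part of free RNA in the member level was not tested. In the control library, B cell barcodes held Ccl3, Ccl4 and Egr1 at 54.0, 120 and 309 CPM. Whether B cells made these transcripts themselves was not tested, so their levels are no measure of free RNA. Immediate early and dissociation genes as a list had a median of 0.44, with 7 of 21 at least 1.5-fold higher and 0 lower. The part of cell handling in these differences was not tested.

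Further genes above TAA were Wfdc17, at 25.2 and 118 CPM, Cd14, a lipopolysaccharide co-receptor gene, at 754 and 1420, and Fpr1, the gene of a formyl peptide receptor, at 91.5 and 194. Sod2, the mitochondrial superoxide dismutase gene, was at 78.9 and 164. Fth1, the ferritin heavy chain gene, was at 5388 and 9495, 1.76 times higher (1.68 to 1.85). Il1b was 1.38 times higher. On the lower side stood Fcnb, a ficolin gene of early granulocytes, at 271 and 85.9, yet 1 TAA barcode held 84.9% of its UMIs, and without the top barcode of each library the log2 ratio turned from −1.55 to 0.61. Ube2c, a mitotic gene, was at 230 and 84.1, with 61.6% of its TAA UMIs in 1 barcode. Its log2 ratio was −1.35 and became −0.37 without the top barcodes. Mki67, the proliferation marker gene, was at 107 and 42.9, with a log2 ratio of −1.15 that became −0.28.

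**Figure D5:**
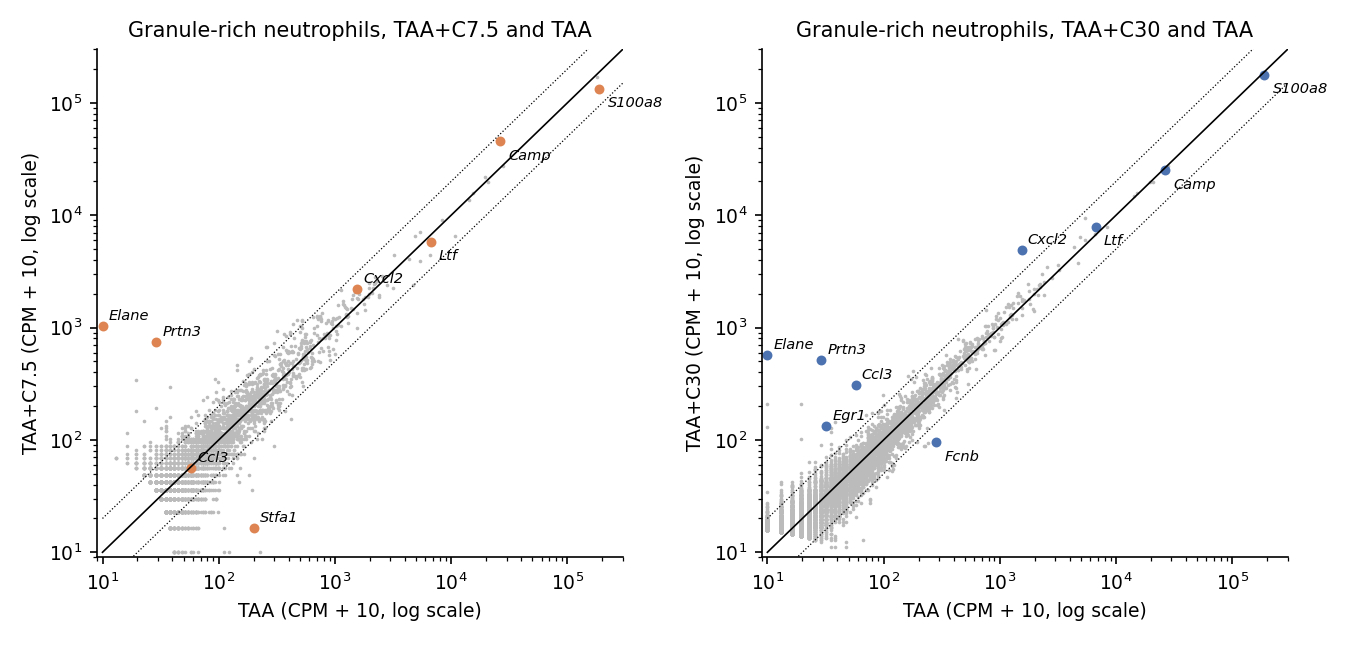
CPM plus 10 (log scales) of each gene in TAA members (x axis) and in TAA+C7.5 (left) or TAA+C30 members (right). The solid line marks equal levels and the dotted lines 2-fold differences; Camp, Ltf and S100a8 lie between the dotted lines in both panels, and Cxcl2 and Ccl3 lie above them with TAA+C30.

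Members of the TAA+C7.5 library were compared with those of TAA at the lowest depth, where 30 UMIs correspond to 196 CPM. Of 798 genes, 42 were at least 2-fold higher (5.26%) and 29 lower (3.63%). The split was 23 higher and 62 lower with trimmed mean scaling, and 34 and 47 without the 10 most abundant genes, so its direction depends on the scaling. Among 3466 genes with at least 10 UMIs, 19% were 1.5-fold higher and 16.1% lower. Camp was 1.75 times higher (1.69 to 1.81) while Ngp and Ltf were close, at 28131 and 27207 and at 6659 and 5820 CPM. Of the 16 secondary granule genes 3 were 1.5-fold higher and 2 lower, with a median of −0.00. Among 13 measured inflammatory genes, 2 were higher and 4 lower (median −0.04). Whether this differs from the 9 and 0 of 20 with TAA+C30 was not tested. Interferon response genes had 1 of 11 higher and 4 lower (median −0.41), and among them Rsad2, an antiviral gene, was at 101 and 6.53 CPM, the latter a single UMI, or 15.5 times lower (2.58 to 630). Stfa1, a stefin gene of neutrophils, was at 189 and 6.53, also 1 UMI, or 29.0 times lower (5.01 to 1164). Only 4 of 36 TAA members held it, and 1 of them held 53.3% of its UMIs; without the top barcode of each library the log2 ratio was −3.30 in place of −3.59. Tnfaip3, the gene of the NF-kB inhibitor A20, was at 97.8 and 274. Hspa8, a chaperone gene, was at 180 and 523.

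Set against TAA+C7.5, TAA+C30 members had 73 of 1136 genes at least 2-fold higher (6.43%) and 25 lower (2.2%). The split was 179 and 6 with trimmed mean scaling and 212 and 20 without the 10 most abundant genes. Among 6453 genes with at least 10 UMIs, 18% were 1.5-fold higher and 17.9% lower. Stefin genes led the higher side: Stfa2l1 was at 39.2 with TAA+C7.5 and 403 with TAA+C30, 10.3 times higher (4.70 to 28.1), in 4 of 35 and 84 of 321 members. With TAA it stood at 170. Stefin genes are near-identical copies, so their UMIs may be split or lost between copies. Of 20 inflammatory genes 13 were 1.5-fold higher and 1 lower (median 0.85), and Ccl3 was 6.52 times higher (3.14 to 16.3). The lower side held the cell cycle genes Ube2c, Stmn1 and Tubb5.

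Transcripts of the earlier, primary granule stage came from few members. Elane, the neutrophil elastase gene, was at 0, 1013 and 556 CPM with TAA, TAA+C7.5 and TAA+C30. Against the limit of 3 counts in TAA members, TAA+C7.5 stood at least 107-fold and TAA+C30 at least 58.8-fold higher. Only 3 of 35 and 5 of 321 members held it, and 1 barcode held 65.2% of the TAA+C7.5 and another 41.8% of the TAA+C30 UMIs. Prtn3, the proteinase 3 gene, was at 18.9, 732 and 500, in 1 of 36, 4 of 35 and 14 of 321 members. Mpo, the myeloperoxidase gene, was at 0, 52.3 and 197. Members with at least 5 UMIs of these genes and Ctsg together numbered 1, 2 and 4. Among members without any UMI of 18 cell cycle genes, the log2 ratio of Elane to TAA was 0.00 with TAA+C7.5 and 0.11 with TAA+C30. The primary granule list had medians of 2.06 and 1.38 against TAA. These differences thus rest on a handful of cells in each library.

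Dividing cells were a minority of members. The full list of 20 cell cycle genes includes H2afz and Hmgb2, which mature neutrophils also carry, so a version without them was added after seeing the data. Thinned to 1000 UMIs, 2 of 36 TAA (5.56%, 0.680% to 18.7%), 5 of 33 TAA+C7.5 (15.2%, 5.11% to 31.9%) and 16 of 313 TAA+C30 members (5.11%, 2.95% to 8.17%) that were deep enough held at least 2 UMIs of the 18 genes. The 3 intervals overlapped. Without thinning the shares were 22.2%, 17.1% and 9.35%. With thinning, mature neutrophils gave 0.899%, 1.69% and 1.04%, and progenitors 25%, 62.5% and 52.3%. Without it, mature neutrophils gave 4.34%, 1.93% and 3.58%, and progenitors 85.7%, 100% and 89.2%. With the full list the thinned shares were 61.1%, 54.5% and 51.1% of members and 41.2%, 48.1% and 40.5% of mature neutrophils. These UMIs were unevenly spread over the divisions by granule share: the 18 genes summed to 88.7, 83.6, 1075 and 2070 CPM along the divisions with TAA, to 185, 0, 2012 and 3217 with TAA+C7.5 and to 353, 281, 259 and 1973 with TAA+C30. Members above 10% granule share held 35.1%, 44.3% and 61.2% of the UMIs of these genes, and those from 3% to 10% held 61.8%, 55.0% and 25.3%. Single members weighed heavily: 1 TAA member held 59.3% of the 285 UMIs there, 1 TAA+C7.5 member 36.6% of 298, and in TAA+C30, with 1002 UMIs, 1 member below 1% granule share held 63. Ube2c was at 230, 385 and 84.1 CPM, 4.58 times lower with TAA+C30 than with TAA+C7.5 (3.33 to 6.24). Rrm2, a ribonucleotide reductase gene, was at 9.47 (3 UMIs), 170 and 24.4, with TAA+C7.5 over TAA at 17.9 (5.50 to 92.6), and Pcna, the gene of the replication clamp, at 28.4, 150 and 34.8. The list had 10 of 16 genes 1.5-fold higher with TAA+C7.5 than with TAA (median 0.81), beside 19% of all genes. With TAA+C30 against TAA, 4 were higher and 4 lower of 20 (−0.20), beside 10.8% and 8.74%, and with TAA+C30 against TAA+C7.5, 17 of 20 were lower (−1.30), beside 17.9%. Rrm2 was seen in 2, 3 and 12 members, so these medians rest on few cells. Without the barcode that held most UMIs of each gene, they were 1.08, 0.51 and −0.50, so the sign against TAA changed for TAA+C30.

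Celecoxib acts on the product of Ptgs2, the cyclooxygenase-2 gene, which lies at chr1:150100031-150108227 on the plus strand. Ptgs2 was low in members and higher in mature neutrophils: it was at 161, 255 and 187 CPM in TAA, TAA+C7.5 and TAA+C30 members and at 1355, 1702 and 1422 in mature cells. The difference was 8.42 times (6.39 to 11.3), 6.68 times (4.85 to 9.46) and 7.61 times (6.74 to 8.62). In B cell barcodes it was at 27.7, 10.1 and 15.0. Along the divisions by granule share it went from 399 to 0 with TAA, from 555 to 0 with TAA+C7.5 and from 552 to 29.0 with TAA+C30. Between libraries, TAA+C30 over TAA was 1.16 (0.862 to 1.59), TAA+C7.5 over TAA 1.58 (1.02 to 2.45) and TAA+C30 over TAA+C7.5 0.733 (0.525 to 1.05). A UMI was seen in 15 of 36 TAA and 99 of 321 TAA+C30 members. Ptgs1, the constitutive cyclooxygenase gene, was at 56.8, 52.3 and 27.8, or 2.04 times lower with TAA+C30 than with TAA (1.12 to 3.57). The TAA level rests on 18 UMIs, of which 1 barcode held 5. All other kept barcodes had Ptgs1 at 84.4, 31.5 and 32.1 CPM, so it was lower with TAA+C30 than with TAA outside the members too. The part of free RNA in the member levels was not tested.

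The leukotriene branch of the pathway was present in members. Alox5ap, whose product activates 5-lipoxygenase, was at 1083, 1228 and 1365 CPM in members and at 1156, 1524 and 1422 in mature cells. Alox5, the 5-lipoxygenase gene, was at 82.1, 118 and 102. Lta4h, which encodes the enzyme that makes leukotriene B4, was at 234, 333 and 203 in members and at 21.1, 11.6 and 24.8 in mature cells, and Ltb4r1, the gene of a leukotriene B4 receptor, at 218, 222 and 280 against 50, 70 and 75. The list of prostanoid and leukotriene genes had medians of −0.09, 0.12 and −0.06 between members and mature cells. Between libraries 1 of 9 was 1.5-fold higher and 1 lower with TAA+C7.5 over TAA (median 0.18), and 0 of 11 higher and 1 lower with TAA+C30 over TAA (0.01).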

How the data were processed

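Each library was a matrix of UMI counts per gene and barcode that the authors deposited, made with Cell Ranger 3.1.0 on mm10, per the submitters' processing notes, from single cell 3′ v2 libraries, per the labels. The deposited counts were used as given; cell calling and the gene annotation are not given in the sources used here. All 55450 gene IDs were found in GENCODE M21. Barcodes under 200 genes (117, 210, 10 and 59) and then those over 20% mitochondrial UMIs (678, 193, 24 and 47) were left out of 6583, 6915, 6117 and 6284. Doublets were called with Scrublet in Scanpy 1.11.5 and removed only as an alternative. Member UMIs were summed per library and scaled to the class total as CPM, and log2 ratios have 10 CPM added. Genes needed 50 CPM and 30 UMIs in the higher library for a 2-fold count, and 10 UMIs in both together for lists, which count 1.5-fold differences. A sum of 30 UMIs equals 94.7, 196 and 17.4 CPM in TAA, TAA+C7.5 and TAA+C30 members, and 3 counts, the limit for a count of 0, equal 9.47, 19.6 and 1.74.

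Shares have exact Clopper-Pearson intervals, levels exact Poisson and ratios exact conditional binomial intervals, all at 95% and for counting error only. No p-value was computed, since cells of 1 mouse are not replicates. Named genes were the 8 highest and 8 lowest log2 ratios of each comparison past 2-fold, list members with the largest ratios, and a set of stage and pathway genes; mitochondrial, ribosomal, haemoglobin, immunoglobulin and uncharacterised genes and those likely carried over from other cells were not eligible. The members, lists and tests were chosen with earlier results of these data known. Alternatives changed the thresholds, scaling, added value, depth, doublets and members. The calculation was tested on simulated data. Python 3.11.15, NumPy 2.4.6, SciPy 1.17.1, pandas 2.3.3 and Matplotlib 3.10.9 were used.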

Additional observations from a re-analysis of the deposited data

How the results depend on the processing

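The member share with TAA+C30 stayed above that with TAA under each alternative, at 8.61 to 9.71 times of kept and 7.16 to 8.08 times of neutrophil-gated barcodes. TAA+C7.5 over TAA ranged from 1.56 to 2.35 of neutrophil-gated barcodes. Of kept barcodes it ranged from 0.945 to 1.17 and turned below 1 at 20 granule UMIs (0.493% against 0.522%). Trimmed mean scaling subtracted 0.25 from each log2 ratio of TAA+C7.5 to TAA, −0.17 from those of TAA+C30 to TAA and −0.37 from those of TAA+C30 to TAA+C7.5. Counts of genes past 2-fold depended on the settings. For TAA+C7.5 against TAA the count of 71 became 42 with 50 CPM added, 1253 with no filter on low values and 26 in members with 0 UMIs of 18 cell cycle genes. For TAA+C30 against TAA the count of 42 became 19, 215 and, without the 10 most abundant genes, 92, and 78 in members with at least 3% granule UMIs. For TAA+C30 against TAA+C7.5 the count of 98 became 29 and 862, 185 with trimmed mean scaling, 232 without the 10 most abundant genes, 157 at 3% granule UMIs and 149 without the barcode with most UMIs of each gene. Among members with 0 UMIs of all 20 cell cycle genes it was 10, over 35 genes in 11 and 2 cells, and no value against TAA could be had since 0 TAA members remained. There Ccl3 turned to −0.58, Smc4 to 2.60, Rnaseh2c to 4.02 and Egr1 to −0.019 on the log2 scale. With 0 UMIs of 18 genes Smc4 turned to 0.18 and Irf8 to 0.66, and Irf8 also to 0.59 at 20 granule UMIs and to 0.63 at 0.5% granule UMIs. Fcnb with TAA+C30 against TAA turned to 0.61 without the top barcode. The other causes were not tested. Shares of members with cell cycle UMIs (61.1%, 54.5% and 51.1%) were 100%, 82.9% and 92.8% without thinning, 86.1%, 93.9% and 77.6% at 1 UMI and 5.56%, 18.2% and 12.1% at 5. No paired analysis was possible because each group had 1 library. Depth limits TAA+C7.5 most.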
